A study of Sus scrofa with 6 samples.

Results

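Floor plate-like cells of porcine midbrain-like organoids at day 28 (D28) were chosen by their UMI counts (molecules counted by their unique identifiers). A D28 cell with at least 2000 UMIs and at most 7000 detected genes was taken when at least 3 of the 5 markers CORIN, SPON1, NTN1, FERD3L and FOXA1 had a UMI, STMN2 had fewer than 3 UMIs, and fewer than 3 of the 5 mitotic genes TOP2A, CENPF, NUSAP1, UBE2C and BIRC5 were detected. This gate took 4973 of 28649 D28 barcodes, 1986 in replicate A and 2987 in replicate B, out of 104820 barcodes in all, and cells that pass it are called gated cells here. The study followed the organoids through days 11, 28 and 45 (D11, D28 and D45), with 2 single-cell libraries per day, named A and B in the labels. All organoids came from a single porcine embryonic stem cell line, IVF_1_ pESC_FIW, with no genetic change or treated arm named, so the groups differ by age in culture and by the media and steps that go with it. They were patterned with SB431542, Noggin, SHH-C24II and CHIR99021, then given FGF8, later BDNF and ascorbic acid, embedded in Matrigel, and matured with BDNF, GDNF, ascorbic acid, db-cAMP and DAPT, an inhibitor of Notch cleavage. Medium and age cannot be told apart, and the p-values below measure the spread between the libraries of a day, for which the labels name no separate cultures, although the study calls them biological duplicates.

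The floor plate is the ventral midline of the embryonic neural tube. Its cells secrete Sonic hedgehog (SHH), which sets ventral fates in the cells beside it, and netrins, SLIT proteins and other cues that steer axons towards or away from the midline. In the midbrain, floor plate cells that carry FOXA2 and LMX1A also give rise to dopaminergic neurons, which is why floor plate induction is the usual route to these neurons from stem cells.

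The share of gated cells was lower at each later day. Among cells with at least 2000 UMIs and at most 7000 genes, the gate took 37.5% and 42.7% of D11 cells in replicates A and B. At D28 it took 21.5% (95% Wilson interval 20.7% to 22.3%) and 27.0% (26.2% to 27.8%), and at D45 3.98% and 8.64%. The libraries of different days did not overlap, but the intervals cover counting error only, and the smallest two-sided p of an exact permutation test of 2 libraries against 2 is 0.333. With each cell thinned to 2000 UMIs before the gate, the shares were 21.9% and 22.8% at D11, 6.72% and 13.04% at D28, and 0.562% and 0.961% at D45, in the same order of days. The gate reads depth, and depth differed between the groups compared. Gated D28 cells had a median of 14666 and 15106 UMIs. The other 15337 D28 cells that met the limits on UMIs and genes had 8257 and 8490. At D11 the order was the reverse, with 10802 and 10661 UMIs in gated and 12049 and 12272.5 in other cells.

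**Figure D1:**
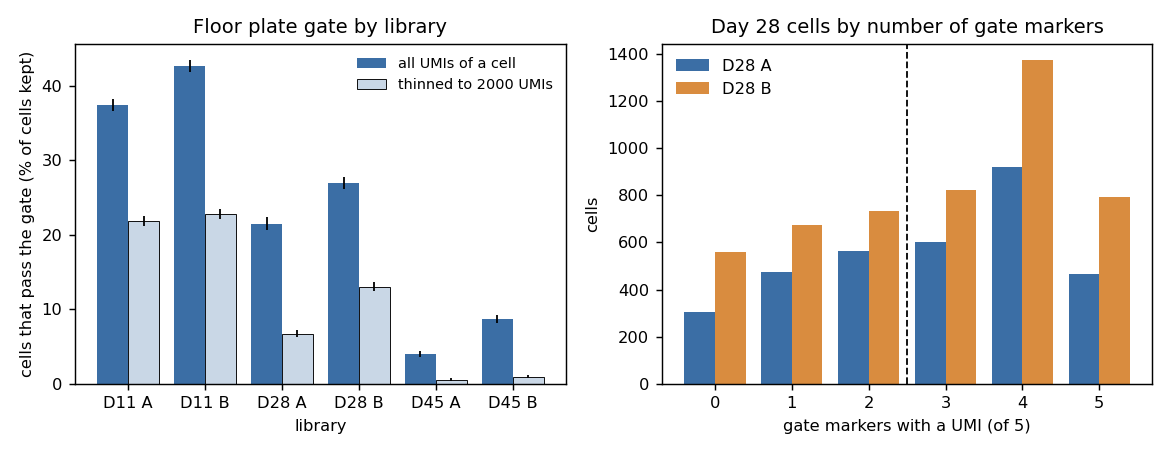
Left, percent of kept cells that pass the floor plate gate in each library, with all UMIs of a cell and after thinning to 2000 UMIs (error bars, 95% Wilson intervals). Right, number of D28 cells (y axis) that had 0 to 5 of the gate markers and met the other parts of the rule, with the dashed line at the cut; the D28 shares of 21.5% and 27.0% lie between those of D11 and D45.

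The gate used the 5 marker genes, so their levels are a description. In UMIs of a gene per 1000000 UMIs of the summed gated cells (CPM), CORIN was at 200.6 and 246.6 in D28 A and B, SPON1 at 560 and 1044, NTN1 at 302 and 529, FERD3L at 29.5 and 35.5 and FOXA1 at 224 and 356. Cells just inside the cut, with exactly 3 markers, had SULF1 at 258.9 and 561.6 CPM, and cells just outside it, with exactly 2, had 147.5 and 342.6 CPM. COL1A1, a fibroblast collagen, went the other way, from 729 and 187 CPM outside to 301 and 61.3 CPM inside.

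Markers that the gate did not use were compared with D28 cells holding at least 10 STMN2 UMIs, called STMN2-rich neurons here (3945 and 3927 cells, median 7659 and 8932 UMIs). Neurons that descend from floor plate cells can keep some of these genes, so their shares are not a background level. FOXA2, the forkhead factor that installs floor plate fate, had a UMI in 38.1% and 48.5% of gated cells and in 9.66% and 10.9% of the neurons, or 6.40% and 10.0% against 2.84% and 3.62% after thinning. SULF1, which trims heparan sulfate and so affects hedgehog signalling, was detected in 83.3% and 93.1% against 13.6% and 29.4%. SHH itself was found in 7.15% and 27.1% of gated D28 cells against 1.77% and 4.33% of the neurons, or 0.856% and 4.85% against 0.304% and 0.942% after thinning, and in 43.2% and 39.6% of gated D11 cells. SLIT2, an axon repellent of the midline, was detected in 98.4% and 99.2% of gated cells but also in 67.6% and 73.5% of the neurons. LMX1A went the other way after thinning, at 14.7% and 8.04% of gated cells against 25.1% and 11.3% of the neurons, while without thinning it was in 46.5% and 25.2% against 54.6% and 22.7%. FOXA2, SULF1, SHH and SLIT2 were thus above these neurons in both libraries, and LMX1A was not. Wilson intervals of shares of cells with a UMI reached at most 2.85 percentage points to either side.

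The libraries were labelled as midbrain dopaminergic neurons, yet TH, the rate-limiting enzyme of dopamine synthesis, was at 4.40 and 2.54 CPM in gated D28 cells and at 76.1 and 49.7 CPM in the other D28 cells. Of 13 neuron genes compared, 12 were at least 2-fold lower in gated than in other D28 cells in both libraries and none at least 2-fold higher. Over all 22752 genes compared in this way, 6.65% were lower and 2.09% higher. The limit on STMN2 put the neurons among the other cells, so these lower neuron genes follow from the gate and are a description. The astrocyte markers AQP4 (1.52 and 1.34 CPM) and GFAP (1.92 and 2.94 CPM) were under 3 CPM. The 10 microglial genes summed to 46.3 and 33.5 CPM in gated and 63.9 and 59.5 CPM in other D28 cells, with CSF1R at 0.298 and 0.312 CPM, TYROBP at 0 in both and PTPRC at 26.1 and 14.5 CPM. Of 7 microglial genes tested between days, PTPRC rose, from 5.07 and 5.71 CPM at D11 (edgeR adjusted p = 0.0246), and 6 were not called. COL1A1 together with COL3A1 was detected in 9.16% of gated cells in D28 A and 1.47% in D28 B, against 14.4% and 1.13% of the other D28 cells. Detection of this pair was thus higher in replicate A on both sides of the gate. COL1A2 did not follow it in gated cells, at 426 CPM in D28 A and 443 CPM in D28 B. The number of barcodes that any 2 libraries shared was 55 to 119.

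The test of days compared UMI counts summed over gated cells per library, D28 against D11, with edgeR's quasi-likelihood test and Benjamini-Hochberg adjustment. Of 18061 genes tested, 3687 (20.4%) passed at an adjusted p of 0.05, 2003 (11.1%) higher and 1684 (9.32%) lower at D28. The libraries of the days did not overlap for 11687 genes (64.7%), and the median log2 fold change of all genes was 0.02. The gated sums held 53488609 and 67573869 UMIs at D11 and 30200032 and 44917200 at D28. The number of calls depended on single libraries, with 1539 without D11 A, 1618 without D11 B, 9037 without D28 A and 10995 without D28 B.

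Among the floor plate's own genes outside the gate, more were called lower than higher at D28 against D11. Of 15 tested members of a list of 16 floor plate factors and secreted cues, 1 rose, 9 fell and 5 were not called, with a median log2 fold change of -0.93. The median was -0.83 without D11 A, -1.04 without D11 B, -0.98 without D28 A and -1.03 without D28 B. How many of them were called moved with the library left out, as it did for all genes. FOXA2 was at 145.9 and 141.2 CPM at D11 and 39.5 and 57.0 CPM at D28, a log2 fold change of -1.73 ± 0.20 (SE, n = 2 libraries a day, edgeR adjusted p = 0.00448). Both D28 libraries were below both D11 libraries. After thinning to 2000 UMIs, 2 of 14 tested members of the list rose and 5 fell (median -0.81).

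SHH was at 64.4 and 56.0 CPM at D11 and 5.40 and 25.1 CPM at D28 (log2 fold change -2.19 ± 0.59, edgeR adjusted p = 0.0488). The size of the fall depended on the D28 library, with -3.51 when D28 B was left out and -1.53 when D28 A was left out. SLIT2, a midline repellent for axons, was at 3443 and 2781 CPM at D11 and 1024 and 1729 CPM at D28 (-1.34 ± 0.32, edgeR adjusted p = 0.0351, lost without D11 A or D11 B). SULF1 gave 890 and 750 CPM at D11 and 434 and 893 CPM at D28, so that the days overlapped and no change was called (-0.48 ± 0.33, edgeR adjusted p = 0.327). NTN3, a netrin, was the member that rose, from 3.53 and 4.53 CPM to 38.1 and 24.3 CPM (2.83 ± 0.35, edgeR adjusted p = 0.00573).

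**Figure D2:**
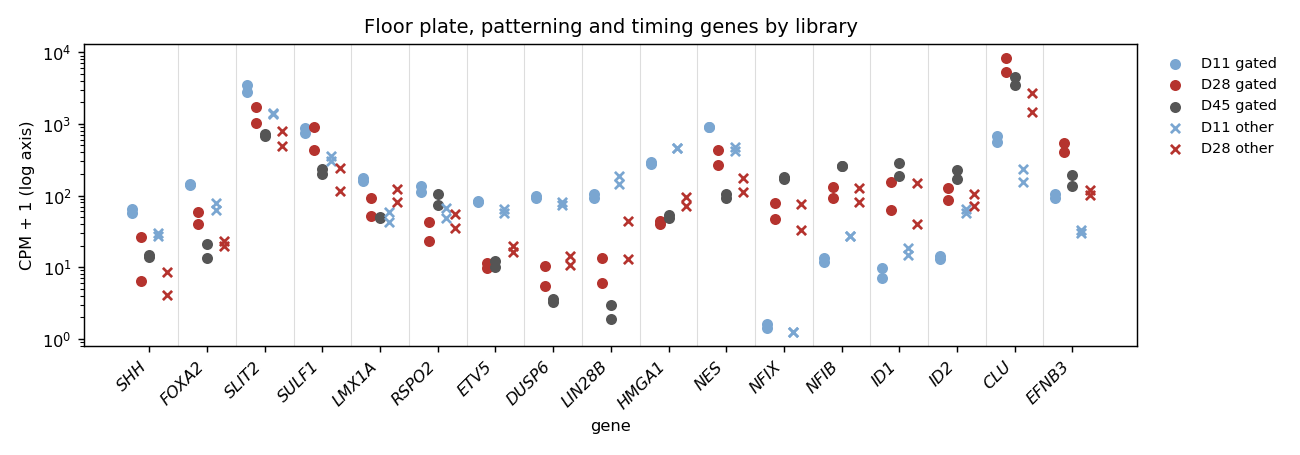
Levels (CPM + 1, log axis) of floor plate, patterning and maturation genes in each library; filled circles are sums of gated cells and crosses sums of other cells, coloured by day, with 1 point per library. FOXA2 values of gated D28 cells lie below D11 and above other D28 cells, while NFIX and CLU lie above D11.

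Genes of the hedgehog pathway were mixed. Of 14 tested hedgehog pathway genes, 1 rose, 5 fell and 8 were not called (median -0.54). The median was -0.51 without D11 A, -0.56 without D11 B, -0.49 without D28 A and -0.53 without D28 B. The number called moved with the library left out, as for all genes. With the letter A or B as a replicate block, 2 fell. The transducer SMO fell by 0.94 ± 0.20 on the log2 scale (edgeR adjusted p = 0.0254), a call lost without D11 A or D11 B, and SHH was among the others that fell. HHIP, a hedgehog-binding inhibitor that is also a target of the pathway, rose from 1.66 and 1.67 CPM to 19.7 and 9.80 CPM (3.03 ± 0.45, edgeR adjusted p = 0.00902). PTCH1, the receptor and a target, was at 66.9 and 57.8 CPM at D11 and 53.0 and 28.5 CPM at D28 (-0.72 ± 0.36, edgeR adjusted p = 0.203). It passed the test, at -1.56, when cells with both COL1A1 and COL3A1 UMIs were left out.

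Of 19 tested midbrain patterning genes, 1 rose, 9 fell and 9 were not called (median -1.37). The median was -1.34 without D11 A, -1.38 without D11 B, -1.99 without D28 A and -0.98 without D28 B. The number called again moved with the library left out, as for all genes. After thinning, 5 of 14 tested fell. The riser, BARHL1, was at 3 UMIs in all at D11 and at 2.78 and 0.779 CPM at D28. ETV5, a transcription factor induced by FGF, fell from 81.4 and 83.2 CPM to 8.71 and 10.5 CPM (-3.25 ± 0.18, edgeR adjusted p = 0.00102). DUSP6, the phosphatase that limits ERK downstream of FGF, fell from 91.3 and 98.4 CPM to 4.50 and 9.24 CPM (-3.96 ± 0.31, edgeR adjusted p = 0.00189). ETV4 and SPRY4, of the same response, fell by 3.81 and 1.94 on the log2 scale, SPRY4 with a call lost without D11 A or D11 B.

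LMX1A, a determinant of midbrain floor plate and dopaminergic fate, was at 177 and 160 CPM at D11 and 92.5 and 51.1 CPM at D28 (-1.34 ± 0.36, edgeR adjusted p = 0.0486). This call was lost without D11 A, after thinning and with at least 4 gate markers. RSPO2, an R-spondin that strengthens WNT signals, fell from 134.6 and 109.5 CPM to 41.9 and 22.1 CPM (-2.04 ± 0.38, edgeR adjusted p = 0.0182), a call lost after thinning. OTX2, the forebrain and midbrain factor, was at 33.7 and 32.9 CPM and then at 18.4 and 9.51 CPM (-1.37, edgeR adjusted p = 0.052), and EN1 was not called either (adjusted p = 0.156). GBX2, the anterior hindbrain factor, fell from 11.9 and 14.3 CPM to 0 and 0.245 CPM (edgeR adjusted p = 0.00354).

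Among progenitor genes, the nuclear factor I genes, which mark the later, gliogenic phase of neural progenitors, all rose. NFIX went from 0.617 and 0.414 CPM to 77.3 and 45.7 CPM (6.79 ± 0.46, edgeR adjusted p = 0.00138), NFIB from 12.3 and 10.6 CPM to 91.6 and 128.9 CPM (3.11 ± 0.20, edgeR adjusted p = 0.0012), and NFIA and NFIC by 1.43 and 1.88 on the log2 scale, NFIA with a call lost without D11 A or D11 B. In the opposite direction, LIN28B, an RNA-binding protein of early progenitors, fell from 103.6 and 91.2 CPM to 4.93 and 12.5 CPM (-3.66 ± 0.39, edgeR adjusted p = 0.00373). HMGA1, a chromatin protein of young progenitors, fell from 279 and 295 CPM to 39.6 and 42.6 CPM (-2.95 ± 0.20, edgeR adjusted p = 0.00139). In the whole neural progenitor list, 8 of 23 tested genes rose, 6 fell and 9 were not called (median -0.16), so the list as a whole had no single direction. Without D11 A, fewer were called, as for all genes, and the median was -0.02.

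DNA replication genes were lower in gated and in other cells, and the gate limited mitotic genes on both days. Their sum went from 387 and 390 CPM to 223 and 257 CPM in gated cells. In other cells it went from 957 and 921 CPM to 409 and 443 CPM. In the interaction test described below, 7 of 17 had the higher change in gated cells and none the lower. Over all genes in that test, 15.0% had the higher change and 9.17% the lower. None of the 17 passed after thinning. The limit on mitotic genes put the cells it removed among the other cells. The count of 7 therefore cannot be told apart from the effect of the gate, and is a description. The counts between days in gated cells follow. Of 17 tested, none rose, 11 fell and 6 were not called (median -1.002). Fewer were called without D11 A or without D11 B, as for all genes, with medians of -1.13 and -0.96. MCM2, a subunit of the replicative helicase, fell from 24.8 and 25.9 CPM to 7.52 and 9.996 CPM (-1.69 ± 0.19, edgeR adjusted p = 0.00456). PCNA, the polymerase clamp, was at 55.1 and 60.1 CPM and then at 66.2 and 55.1 CPM (-0.06 ± 0.22, edgeR adjusted p = 0.869). The cyclin CCND1 fell by 1.38 and the inhibitor CDKN1C by 1.28 on the log2 scale, the second a call lost without D11 A or D11 B.

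In the Notch and proneural list, HES5, HEY1 and HEYL, targets of Notch, fell by 2.14, 2.23 and 3.18 on the log2 scale (edgeR adjusted p = 0.00863, 0.00895 and 0.00372). ID1, which blocks proneural factors and responds to BMP, rose from 6.02 and 8.64 CPM to 153 and 62.8 CPM (3.78 ± 0.54, edgeR adjusted p = 0.00847), and ID2, ID3 and ID4 rose by 2.93, 2.08 and 1.55, the last a call lost without D11 A or D11 B. Without D28 A, the log2 fold change of ID3 was 1.10. Of 21 tested genes of this list, 4 rose, 5 fell and 12 were not called (median -0.11).

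Of 15 tested genes of an astrocyte list, 10 rose, none fell and 5 were not called (median 3.10). The median was 3.10 without D11 A, 3.08 without D11 B, 2.17 without D28 A and 3.56 without D28 B. With at least 4 gate markers it was 2.165, and without the cells that had both COL1A1 and COL3A1 UMIs 2.395. AQP4 and GFAP, which define astrocytes, were among those that rose (edgeR adjusted p = 0.00393 and 0.0105, GFAP with a call lost without D11 A or with at least 4 gate markers), to the D28 levels of under 3 CPM given above. CLU, a secreted chaperone that is abundant in glia, was at 564 and 684 CPM at D11 and 8406 and 5371 CPM at D28 (3.35 ± 0.43, edgeR adjusted p = 0.00613). Other cells had CLU at 153.9 and 237.3 CPM at D11 and at 2662 and 1469 CPM at D28. A difference between the changes in gated and other cells was not called (0.19, edgeR adjusted p = 0.428). SPARCL1 and MT3 rose by 4.82 and 3.65 on the log2 scale. SLC1A3, a glutamate transporter of radial glia and astrocytes, rose from 2.97 and 2.71 CPM to 39.1 and 34.0 CPM (3.55 ± 0.24, edgeR adjusted p = 0.00137) and stayed below the 102.2 and 103.1 CPM of the other D28 cells. These genes were uneven over the groups of gated D28 cells described below. SLC1A3 was at 239, 151 and 341 CPM in groups 4, 7 and 8 (153, 197 and 174 cells) and at 6.30 to 28.5 CPM in the others. AQP4 was highest in group 7, at 23.6 CPM, and GFAP in groups 7 and 8, at 14.9 and 38.0 CPM. In the gated cells of D45, AQP4 was at 140 and 130 CPM and GFAP at 141 and 132 CPM, given without a test. Other D45 cells had AQP4 at 59.4 and 80.9 CPM. Of the gated D45 cells, 331 of 418 in A and 729 of 962 in B had exactly 3 gate markers. FOXA2 had a UMI in 19.9% and 12.9% of them.

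Secreted factors had no single direction, with 11 of 33 tested genes higher, 5 lower and 17 not called (median -0.07). The median was -0.27 without D28 A and 0.36 without D28 B. PTN, a heparin-binding growth factor of radial glia, rose from 20.8 and 16.9 CPM to 659 and 359 CPM (4.65 ± 0.44, edgeR adjusted p = 0.00269). IGFBP5, which binds insulin-like growth factors, rose by 1.80 on the log2 scale, a call lost without D11 A or D11 B. In the R-spondin and WNT list, 6 of 27 genes rose, 2 fell and 19 were not called (median 0.14). The median was 0.35 without D11 A and -0.006 without D11 B. RSPO1, the relative of RSPO2, rose from 0.019 and 0.030 CPM (3 UMIs in all) to 8.74 and 7.70 CPM (edgeR adjusted p = 0.00102).

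Other lists are given by their counts. Heat shock genes counted 4 of 10 higher, none lower and 6 not called (median 0.91), and hypoxia and glycolysis genes 1 higher, 1 lower and 17 not called of 19 (median -0.08). Extracellular matrix genes went both ways, with 7 of 29 higher, 9 lower and 13 not called (median -0.25). The fibroblast list had 5 of 7 higher, none lower and 2 not called (median 5.40). Ciliated cell genes counted 4 of 12 higher, 3 lower and 5 not called (median 0.24), among them FOXJ1, the master factor of motile cilia, at 11.1 and 11.6 CPM at D11 and 23.8 and 20.8 CPM at D28 (0.84 ± 0.22, edgeR adjusted p = 0.0443), a call lost without D11 A, without D11 B, after thinning and under the replicate block. Without D11 A or without D11 B, fewer ciliated cell and heat shock genes were called higher, as for all genes. The medians were then 0.31 and 0.31 for ciliated cell genes and 0.87 and 0.93 for heat shock genes.

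The named genes with the largest falls included C1QA, a chain of complement C1q, at 126 and 156 CPM at D11 and 2.45 and 1.58 CPM at D28 (-6.28 ± 0.37, edgeR adjusted p = 0.00107). Its partner chains C1QB and C1QC were at or near 0 in both libraries of each day, and whether this gene model collects reads of another transcript was not tested. OPCML, a neural adhesion protein, fell from 789 and 690 CPM to 23.5 and 51.3 CPM (-4.48 ± 0.38, edgeR adjusted p = 0.00215). APOA1, the main apolipoprotein of high-density lipoprotein, fell by 3.87, the kinase gene DAPK2 by 3.69, and the metalloproteinase genes ADAMTS19 and ADAM12 by 3.98 and 3.60 on the log2 scale.

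Among the largest rises were PENK, COL3A1 and COL1A2. PENK, the precursor of enkephalins, was at 0.019 and 0.059 CPM (5 UMIs in all) at D11 and at 197 and 11.9 CPM at D28 (11.17 ± 1.95, edgeR adjusted p = 0.0146), and the value was 7.83 without D28 A. Most of this PENK lay in the 153 fibroblast-like cells of a group described below, where it was at 2548 CPM against 14.8 CPM in the rest. COL3A1 went from 0.467 and 0.459 CPM to 141 and 40.1 CPM (7.52 ± 0.82, edgeR adjusted p = 0.00408). COL1A2 was even between the D28 libraries, at 426 and 443 CPM against 2.51 and 1.87 CPM at D11 (7.50 ± 0.29, edgeR adjusted p = 0.000891). Both collagens also rose in the other cells. There COL1A2 went from 2.24 and 2.40 CPM to 359 and 194 CPM, and COL3A1 from 0.349 and 1.57 CPM to 292 and 40.8 CPM. A difference between the changes in gated and other cells was called for neither COL1A2 nor COL3A1 (edgeR adjusted p = 0.133 and 0.588). Without the cells that had both COL1A1 and COL3A1 UMIs, the log2 fold change of COL1A2 was 7.39, that of COL3A1 5.86, that of PENK 8.78, and that of COL1A1 2.48 in place of 6.14. PCSK1, a protease that cuts prohormones, rose from 0.692 and 0.947 CPM to 81.3 and 74.7 CPM (6.42 ± 0.29, edgeR adjusted p = 0.000891).

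The interferon response genes rose together. These are the genes that interferons switch on through a complex of transcription factors that includes STAT2 and IRF9, and many of them block viral replication. This complex reads an element of GAAA, any 2 bases and GAAA, so the sequences before 2 of the genes that rose are shown, each the 250 bases upstream of the RefSeq gene start on the strand of the gene (Sscrofa11.1), with matches to this element or to its reverse complement (TTTC, any 2 bases, TTTC) in capitals. ISG15 lies on the plus strand (window chr6:63362951-63363200) and IFI6 on the minus strand (chr6:84858073-84858322).
ISG15: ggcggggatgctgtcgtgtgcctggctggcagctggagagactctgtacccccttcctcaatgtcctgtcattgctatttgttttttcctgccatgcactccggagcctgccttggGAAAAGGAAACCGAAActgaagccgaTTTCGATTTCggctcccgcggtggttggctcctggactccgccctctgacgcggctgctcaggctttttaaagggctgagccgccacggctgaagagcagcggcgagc
IFI6: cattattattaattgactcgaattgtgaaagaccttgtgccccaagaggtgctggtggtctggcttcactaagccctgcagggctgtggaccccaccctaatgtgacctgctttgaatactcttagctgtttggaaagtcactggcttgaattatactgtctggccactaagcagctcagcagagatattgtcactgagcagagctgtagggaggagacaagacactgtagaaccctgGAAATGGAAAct
The element was present in 10 of 23 windows of the list (43.5%) and in 588 of 19531 windows of all protein-coding genes (3.01%). Matches may overlap, as in ISG15, and a match is a description of the letters, not of binding.

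Of 21 interferon response genes tested, 19 rose, none fell and 2 were not called (median log2 fold change 3.70). When any library was left out, the median was 3.701 to 4.215, and fewer were called without D11 A or D11 B. IFI6, which encodes a small interferon-induced membrane protein, was at 9.72 and 5.95 CPM at D11 and 2546 and 2133 CPM at D28, 274-fold higher (8.10 ± 0.45, edgeR adjusted p = 0.00102). ISG15, a ubiquitin-like modifier, went from 9.37 and 5.14 CPM to 767 and 690 CPM (6.53 ± 0.41, edgeR adjusted p = 0.0012). MX1, a GTPase against influenza viruses, rose from 11.5 and 11.0 CPM to 207 and 261 CPM (4.22 ± 0.20, edgeR adjusted p = 0.000891). Both D28 libraries lay far above both D11 libraries in all 3 genes.

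The sizes of the rises differed between members. USP18, which removes ISG15 and restrains the receptor, rose from 0.972 and 1.13 CPM to 40.3 and 34.2 CPM (5.01 ± 0.28, edgeR adjusted p = 0.00102). Among the factors that carry the signal, STAT2 and IRF9 rose by 1.12 and 3.36 on the log2 scale (edgeR adjusted p = 0.0288 and 0.00665), STAT2 with a call lost without D11 A or D11 B and IRF9 at under 3 CPM. IFIT5 (0.43, edgeR adjusted p = 0.159) and OASL (0.67, edgeR adjusted p = 0.225) were not called. CCL2, a chemokine, was at 0 UMIs at D11 and at 18.3 and 3.43 CPM at D28. With its fold change set to the floor of 3 UMIs over the D11 cells, the median of the list was 3.70. This setting could not move the median, since the fold change of CCL2 lay above it either way.

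IFI6 and ISG15 were also higher in gated than in other D28 cells, where IFI6 was at 618 and 488 CPM and ISG15 at 193 and 205 CPM. Of 22752 genes compared in this way, without a test because the gate split the same cells, 475 (2.09%) were at least 2-fold higher in gated cells of both libraries and 1512 (6.65%) at least 2-fold lower. The interferon list had 13 of 22 genes at least 2-fold higher and none 2-fold lower in both libraries, and its member CCL2 was below the 53.1 and 4.00 CPM of other cells in both. IFI6 had a UMI in 96.0% and 91.3% of gated D28 cells and in 56.3% and 51.6% of the STMN2-rich neurons, and after thinning in 80.0% and 72.2% against 21.1% and 18.9%. Gated D11 cells had an IFI6 UMI in 4.85% and 4.52% of cells.

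**Figure D3:**
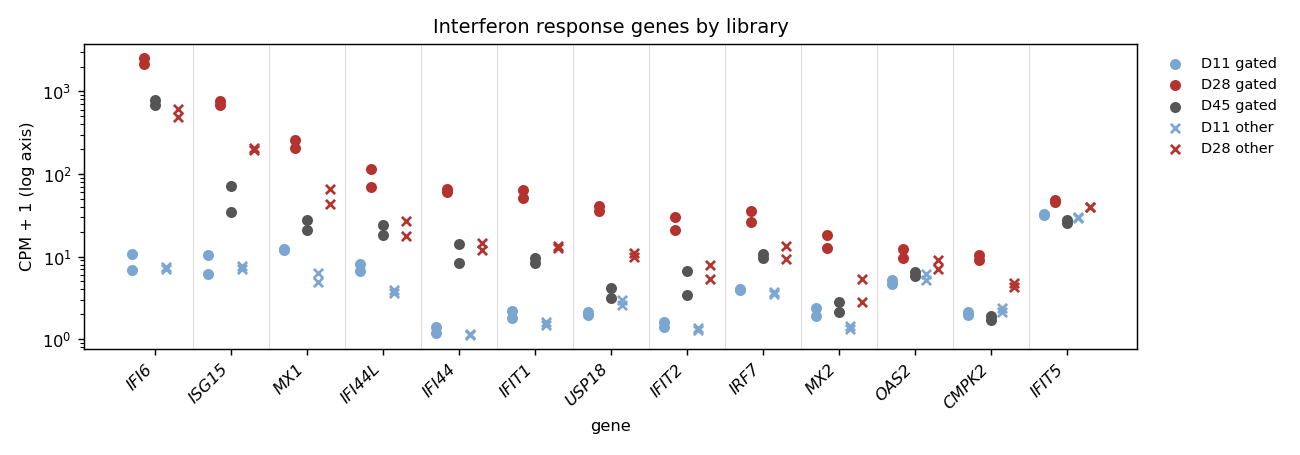
Levels (CPM + 1, log axis) of 13 interferon response genes, 1 point per library; circles are sums of gated cells and crosses sums of other cells, coloured by day. IFI6, ISG15 and MX1 of gated D28 cells stand above D11, D45 and other D28 cells, while IFIT5 differs little.

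In gated D45 cells, IFI6 was at 791 and 685 CPM, ISG15 at 33.3 and 70.7 CPM and USP18 at 2.12 and 3.16 CPM. These D45 levels are given without a test, and the gated cells of D45 were few (418 and 962). COL1A1 together with COL3A1 was detected in 21.8% and 30.7% of them, more than in gated D28 cells. The fibroblast-like group of gated D28 cells described below had IFI6 at 976 CPM with the libraries pooled. That level was 702 CPM in its 131 cells of A and 2183 CPM in its 22 cells of B. The part of this make-up in the D45 levels was not tested.

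The change from D11 to D28 was then compared between gated and other cells of the same libraries, as an interaction term with the library in the model. Of 20452 genes tested, 4933 (24.1%) passed, 3058 (15.0%) with the higher change in gated cells and 1875 (9.17%) with the lower. In the interferon list, 12 of 21 genes had a higher change in gated cells and none a lower one. The median difference was 1.34. When any library was left out it was 1.03 to 1.79, and fewer genes passed without D11 A or D11 B. After thinning to 2000 UMIs, 7 of 19 tested genes of the list had the higher change and 0 the lower (median 1.09). With at least 4 gate markers it was 11 of 21 and 0 (median 0.95). In the original fit the difference was 1.92 for IFI6 (edgeR adjusted p = 0.00337) and 2.89 for USP18 (edgeR adjusted p = 0.000951). Ahead of this, at D11, gated and other cells had been close in IFI6, with log2 ratios of 0.52 and -0.01. The other cells changed in make-up between the days, since STMN2-rich neurons, all of them outside the gate, numbered 1170 and 1445 of 13048 and 14675 kept cells at D11 and 3945 and 3927 of 9240 and 11070 at D28. The part of this change in the differences between gated and other cells was not tested.

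For 11 of 19 midbrain patterning genes the change in gated cells was the lower, and for none the higher. The median difference was -1.16. It was -1.01 without D11 A, -1.29 without D11 B, -1.36 without D28 A and -0.94 without D28 B. How many passed moved with the library left out, and without D28 B some had the higher change. After thinning, 6 of 17 tested had the lower change. LMX1A differed by -2.16 (edgeR adjusted p = 0.00297), and at D28 it was lower in gated than in other cells, at 92.5 and 51.1 CPM against 122 and 80.2 CPM. In the STMN2-rich neurons of D28, LMX1A was at 161 and 100.4 CPM.

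**Figure D4:**
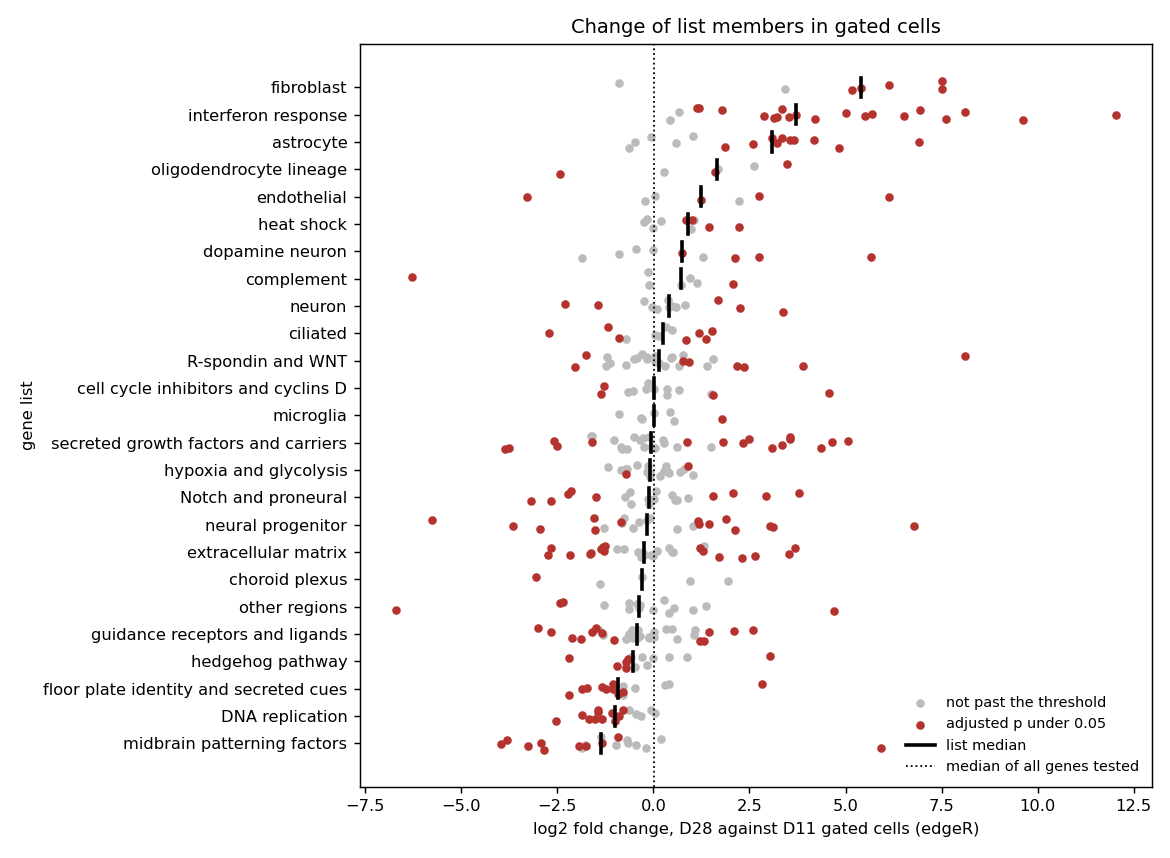
Change in gated cells between D11 and D28 (x axis, edgeR log2 fold change, positive where D28 was higher) for the tested members of each gene list; each point is a gene, red where the adjusted p was under 0.05, the bar is the median of the list and the dotted line the median of all genes (0.02). The interferon list, with a median of 3.70, lies to the right of the zero line, and midbrain patterning, at -1.37, to its left.

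The 12 genes that stood highest in gated over other D28 cells are a description, since the gate split these cells. NDNF, a secreted neuron-derived factor, was at 228 and 223 CPM against 41.3 and 30.7 CPM, and gated D11 cells had it at 42.6 and 42.2 CPM. SEMA3C, a semaphorin that guides axons, was at 166 and 203 CPM against 37.5 and 48.8 CPM. FZD6, a WNT receptor, was at 113 and 112 CPM against 24.2 and 21.4 CPM. NECTIN3, an adhesion protein, was at 506 and 716 CPM against 119 and 160 CPM. SIDT1, PLS1, EPHX1, CMTM8, PLD1 and the interferon-induced EPSTI1 were between 89.1 and 1444 CPM in gated cells, and IFI44 and IFI6 completed the 12.

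EFNB3, an ephrin that repels axons at the midline, was at 105 and 92.0 CPM at D11 and 404 and 535 CPM at D28, against 101 and 119 CPM in the other D28 cells (2.10 ± 0.21, edgeR adjusted p = 0.00321). Guidance genes as a list had no common direction, with 5 of 33 up, 8 down and 20 not called (median -0.42). The median was -0.33 without D28 A and -0.50 without D28 B.

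The gated D28 cells were not uniform. Leiden clustering split them into 10 groups, of which 6 drew at least 90% of their cells from 1 library and held 3836 cells (77.1%). The replicates differed in make-up, and a group and its library cannot be told apart in those 6. Group 5 held 884 cells of A and 27 of B, and groups 6 and 9 held 60 and 11 cells of A and 955 and 681 of B.

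Group 3 (454 and 159 cells) was led by CNMD, RSPO2, PMCH, DMRTA2 and NXPH1. It held most of the RSPO2, at 221 CPM against 3.74 CPM in the rest, with LMX1A at 339 CPM and OTX2 at 89.1 CPM. Group 4 (131 and 22 cells) was fibroblast-like by its markers, with COL1A1 at 1526 CPM against 6.19 CPM in the rest and PENK at 2548 CPM against 14.8 CPM. Of its cells, 87.6% had exactly 3 gate markers, and FOXA2 was at 9.0 CPM.

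The remaining groups had other leading genes. Group 1 (59 cells of A and 719 of B) was led by TFF3, ENPP6, STC1, MX2 and CXCL10 and had IFI6 at 3591 CPM. CXCL10 was uneven between the libraries, at 14.6 CPM in all gated D28 cells of A and 3.10 CPM in those of B. Group 2 was led by FABP3, FABP5, INSIG1, BHLHE41 and IGSF8, group 5 by CHGB, SYNPR, VASN, TMEM59L and HLA-DRA, and group 6 by SPHKAP, RYR3, CDH12, IQCJ and KCNH7, with SULF1 at 1169 CPM. Group 7 was led by PTX3, COL14A1, CARTPT, MATN4 and COL2A1, and group 9 by CDKN1A, SRXN1, GDF15, TRIB3 and PCK1, genes of the p53 and stress responses among them. Group 8 was led by NPVF, PTH2, LHFPL3, DSCAM and GRM5, and 25.3% of its cells were called doublets. Group 10, led by IFN-ALPHA-8, PPP1R1C, LRRC74B, NHS and GNA14, had a median of 3128 UMIs and was left unnamed. With the libraries pooled, IFI6 ranged from 188 to 3591 CPM over the groups, lowest in group 10 and highest in group 1. Within each library it was higher in group 5 than in group 1. The values were 3522 against 3263 CPM in A and 4169 against 3622 CPM in B.

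**Figure D5:**
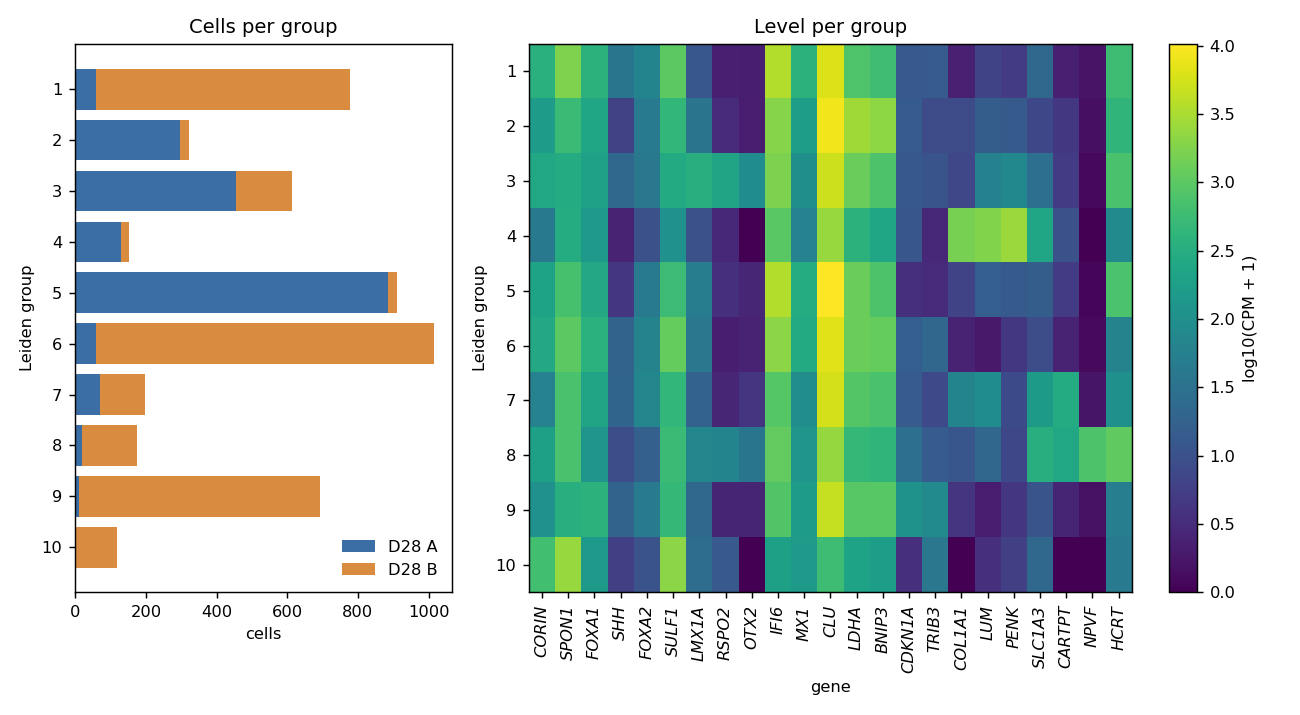
Left, cells of each Leiden group of gated D28 cells, split by library. Right, level of selected genes in each group, as log10(CPM + 1); RSPO2 is concentrated in group 3 and COL1A1 and PENK in group 4.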

How the data were processed

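Single cells of pMLOs were profiled with a droplet 3′ kit in 6 libraries, 2 for each of 3 days. For every library the authors deposited raw UMI counts as a sparse matrix of 30477 features by barcode. The submitters' processing notes name Cell Ranger, Seurat 4.3.0 and the build Sscrofa11.1. Cluster names of the study played no part. D28 libraries held 112777548 and 134270286 UMIs. The members and the gene lists were chosen with earlier results of these data known.

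Counts of gated and of other cells were summed per library and fitted with edgeR 4.0.16 (TMM, filterByExpr, glmQLFTest, R 4.3.3), with Benjamini-Hochberg adjustment over all genes tested. The 11 gate genes stayed in the fits and the adjustment, but were left out of list counts and named genes, and none of their p-values is reported. The interaction model had terms for library, class and class by day. Both fits were tested on simulated data. Gated D28 cells were clustered with scanpy 1.11.5 (2000 variable genes, 20 components, 15 neighbours, Leiden resolution 0.5, seed 1). Doublets were scored with Scrublet at 0.4% per 1000 barcodes and kept. Named genes were the 8 largest rises and 8 largest falls past the threshold with 50 CPM or more and no overlap of days, the 12 highest gated over other D28 cells, the 5 largest interactions each way, list members, and the 5 leading genes per group. C1QB and C1QC, and the genes of the text beyond this rule, were chosen after their values were seen. Alternatives were DESeq2 1.42.0, its size factors, no filter, leaving out each library, a limit of 10% mitochondrial UMIs (13 genes), doublets removed, thinning, 4 markers, D45 sums added to the fit and a replicate block. Promoter windows came from the RefSeq annotation of Sscrofa11.1. Results for a few list members are not reported here.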

Additional observations from a re-analysis of the deposited data

Results flagged for a closer look

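For 10 genes the change from D11 to D28 differed most between gated and other cells, by edgeR's quasi-likelihood test of the interaction term, with library as a term and n = 2 libraries a day. SYT4, a synaptotagmin of vesicles, was the furthest in favour of gated cells, with a difference of 4.85 ± 0.28 on the log2 scale (edgeR adjusted p = 0.0011). It went from 0.337 and 0.977 CPM to 71.6 and 50.3 CPM in gated cells and from 20.6 and 30.3 CPM to 89.4 and 87.2 CPM in the others. NTS, the precursor of neurotensin, differed by 4.83 and NELL1, a secreted glycoprotein, by 3.89, the latter rising from 6.08 and 4.50 CPM to 406 and 475 CPM in gated cells. ONECUT1 differed by 3.83, where gated cells stayed at 1.89 to 2.88 CPM while other cells went from 59.9 and 63.0 CPM to 2.74 and 13.8 CPM. The stress-response factor ATF5 differed by 3.55.

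In the other direction, BRINP3 differed by -4.75 (edgeR adjusted p = 0.00045), with gated cells at 2.65 to 7.88 CPM on both days and other cells going from 1.69 and 1.48 CPM to 83.7 and 123 CPM. SCN3A, a neuronal sodium channel, differed by -4.62 and OPCML by -3.82. HS6ST3, a heparan sulfate sulfotransferase, differed by -3.72 and TAC3, the precursor of neurokinin B, by -3.69. The other cells hold the neurons, which the gate removes by STMN2.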

How the results depend on the processing

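Among 62 of 83 named genes called in the comparison of days, no alternative reversed a direction, and the genes called in both the original fit and an alternative had the same sign. The count of 3687 calls ranged from 1539 to 10995 when a library was left out, for which the cause was not tested, and was 2480 to 4826 under the other alternatives but the crossed pairing, with DESeq2 at 4408. With the interaction, 4933 calls ranged from 1316 to 8875 when a library was left out, and thinning to 2000 UMIs gave 2657, where the cause was not tested. The share of gated cells was 40.1% at D11, 24.2% at D28 and 6.31% at D45. It was 22.3%, 9.88% and 0.761% after thinning, and 27.3%, 17.3% and 1.46% with at least 4 markers, which takes fewer cells by construction. Clustering gave 10 groups, and 7, 15 and 12 under the alternatives. Without D11 A, 13 named genes lost their call and without D11 B, 12, SLIT2 among both. The labels do not say whether the letters A and B pair the libraries. The A minus B differences of D11 and D28 had r = -0.315 over 18061 genes. This value cannot decide it, since the D28 libraries also differed in make-up. With the letter as a replicate block 3626 genes were called, with the calls of SLIT2 and SULF2 among those lost, and with the pairing crossed 5930. The crossed pairing and the fit without cells holding COL1A1 and COL3A1 UMIs (3805 calls) were chosen after seeing the data. Depth limits genes with a few UMIs in the summed D11 cells, and the fold of PENK rests on 5 of them.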
